A study of Homo sapiens with 6 samples.

Results

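The RNA levels of 9 genes of the stress ubiquitin supply and of the VCP machinery were followed in OVCAR5, a human cancer cell line, after treatment with SpiD7. The genes were chosen by name, with earlier results of these data known: UBB, ZFAND2A, ZFAND5, STUB1, USP14, VCP, NPLOC4, UFD1L and UBQLN1. All 9 of 9 were present among the 29982 gene symbols of the deposited table, and all 9 were among the 13287 genes that passed the filter of a mean FPKM of at least 1. SpiD7 is a spirocyclic dimer designed to attach covalently to protein sulfhydryl groups. The study used the sequencing to ask whether the compound turns on the unfolded protein response. Cells received the vehicle, dimethyl sulfoxide (DMSO; 2 libraries), or 10 μM SpiD7 for 2 h (2 libraries), 6 h (1 library) or 12 h (1 library). The labels give no duration for DMSO and do not say whether libraries of a group came from separate cultures, so the p-values below measure only the spread between these libraries. One cell line was used throughout, and no group carries a genetic change.

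Ubiquitin is a small protein that is attached to other proteins and, as a chain, marks them for the proteasome. Human cells make it as polyubiquitin, as from UBB, and as fusions with ribosomal proteins, as from RPS27A, and polyubiquitin serves as the reserve that is drawn on when damaged proteins accumulate. VCP (also p97) is an AAA ATPase that pulls ubiquitylated proteins out of membranes and complexes, in large part through the heterodimer of NPLOC4 and UFD1L (current symbol UFD1). ZFAND2A and ZFAND5 are AN1 zinc finger proteins that act at the proteasome. STUB1 (CHIP) is a ubiquitin ligase that works with the HSP70 and HSP90 chaperones, USP14 is a deubiquitylase bound to the proteasome, and UBQLN1 is a shuttle that carries ubiquitylated proteins to it.

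ZFAND2A and UBB had the largest differences from DMSO, and the differences of the other 7 lay between -0.37 and 0.49 on the log2 scale at every time. None of the 9 passed an adjusted p of 0.05, a threshold past which the test called 0.0226% of all genes tested at 2 h, 0.294% at 6 h and 0.339% at 12 h. Values are in FPKM, a fragment count divided by transcript length and library depth, so that levels can be set beside each other between genes. The second DMSO library and the second 2 h library were recovered from columns read as the authors' group means. Where a pair of values is given for DMSO or 2 h, the second is the recovered one, also where it is not called so. Every such value rests on that step. So do the DMSO and 2 h means, and the fold changes, SEs, intervals and p-values over all libraries, those for 6 h and 12 h included. A fold change is the difference of mean log2(FPKM + 0.1) values, tested by limma over all 6 libraries with Benjamini-Hochberg adjustment over the 13287 genes. The 6 h and 12 h libraries have no replicate, and their tests assume that each would vary as the DMSO and 2 h pairs did. An exact test of 2 against 2 libraries cannot go below a two-sided p of 0.333. In such bulk libraries fewer cells and less RNA per cell cannot be told apart.

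The cell line was checked against its markers. Of 7 epithelial and ovarian carcinoma markers, 6 were at or above 1 FPKM in every library (KRT8 at 1459 to 2194, EPCAM at 77.4 to 86.5 and PAX8 at 1.64 to 2.12), and MUC16 was at 0.07 to 0.69. PAX8 was close to this bound and MUC16 below it, so these values do not show which tissue the line came from. Of 7 markers of other cell types, CD3E was listed at 0 in every library, PTPRC reached 0.03, VWF 0.09 and COL1A2 0.03 FPKM, COL1A1 was at 0.60 to 2.18 and CD68 at 22.7 to 37.3 FPKM. PECAM1 had 10.7 and 7.74 FPKM in the recovered DMSO and 2 h libraries and 0.32 to 0.96 in the other 4, and its part in the differences between paired libraries was not tested. The sum of the 7 was 26.8 to 50.2 in DMSO and 24.4 to 41.1 after SpiD7. The files hold no counts, and relative depth, read from the steps of low values, was 0.767 to 1.12 times that of the first DMSO library. MIR6723 took 5.04% (6 h) to 25.04% of the FPKM total, with the highest shares in the recovered DMSO (25.04%) and recovered 2 h libraries (21.8%). The part of this share in the differences between paired libraries was not tested.

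**Figure D1:**
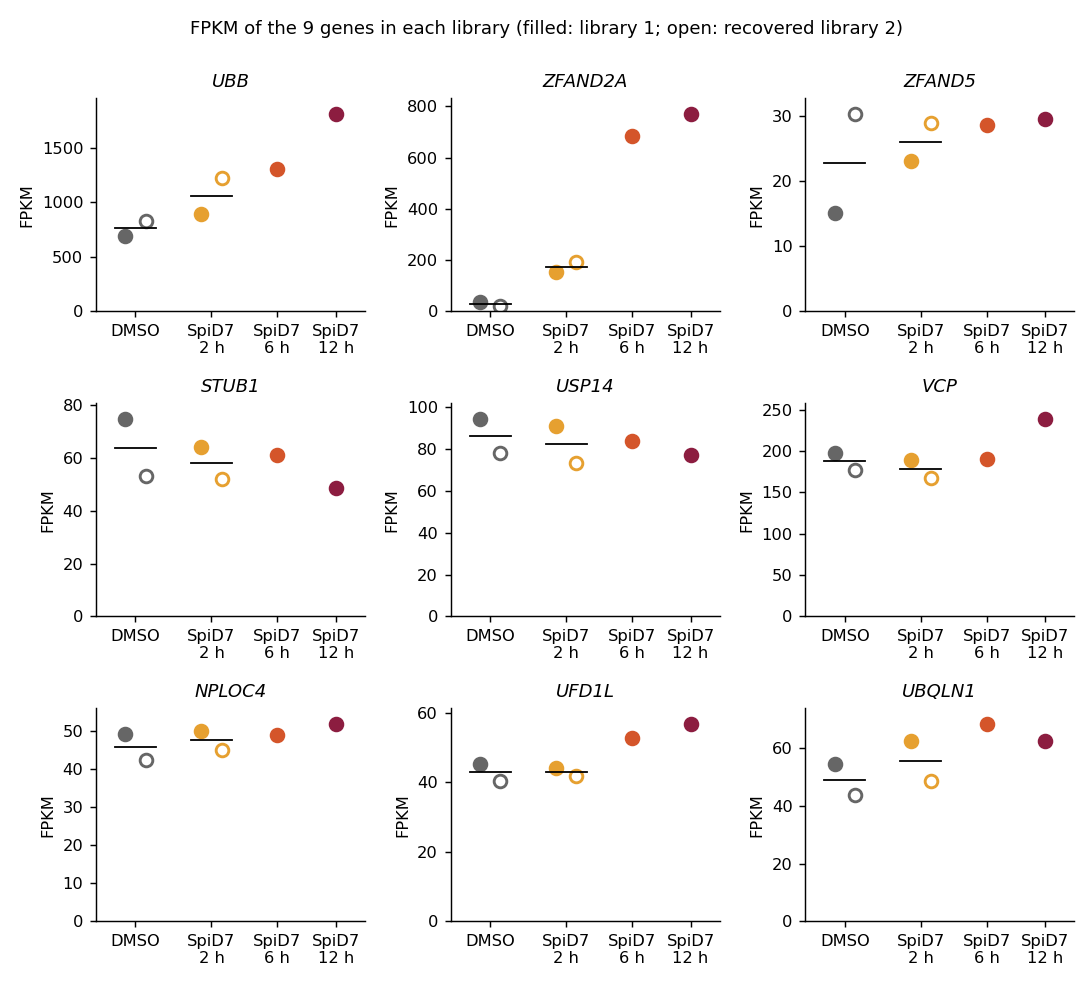
FPKM (linear axes from 0, scaled for each gene) of the 9 genes in the 6 libraries; filled points are the directly deposited libraries, open points are the recovered second libraries, and bars mark the means of the pairs. ZFAND2A ran from 23.1 to 771 FPKM and UBB from 696 to 1810 FPKM, with all 4 SpiD7 libraries above both DMSO libraries, whereas the SpiD7 points of ZFAND5 lay between its DMSO points of 15.2 and 30.3 FPKM.

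Because ZFAND2A differed most, the sequence around its start site is shown beside that of VCP, which differed little. Both are RefSeq windows of GRCh38.p14 on the minus strand, read 5′ to 3′ from 250 bases before to 50 bases after an annotated start: chr7:1160147-1160446 for ZFAND2A and chr9:35072576-35072875 for VCP. These start sites lie 563 and 624 bases inside the gene bounds of GENCODE v29. Capitals mark a match to the heat shock dimer, the inverted pair of 5-base units bound by heat shock factor, searched as GAANNTTC or TTCNNGAA, letters that read the same on both strands.
ZFAND2A: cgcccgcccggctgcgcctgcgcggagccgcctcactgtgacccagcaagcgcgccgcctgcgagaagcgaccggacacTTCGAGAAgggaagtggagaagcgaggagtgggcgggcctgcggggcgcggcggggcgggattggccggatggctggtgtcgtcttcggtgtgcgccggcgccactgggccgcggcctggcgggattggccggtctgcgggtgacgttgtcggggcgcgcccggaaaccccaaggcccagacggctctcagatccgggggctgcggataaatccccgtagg
VCP: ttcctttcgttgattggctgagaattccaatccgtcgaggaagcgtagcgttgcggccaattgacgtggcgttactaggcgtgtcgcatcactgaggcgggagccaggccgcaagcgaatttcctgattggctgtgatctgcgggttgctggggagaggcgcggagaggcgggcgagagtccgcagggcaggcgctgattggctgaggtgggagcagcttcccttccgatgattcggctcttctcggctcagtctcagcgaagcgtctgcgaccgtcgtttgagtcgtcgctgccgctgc
The match in ZFAND2A, TTCGAGAA, begins at -171 counted from the start site. Windows were found for 7 of the 9 genes (11 windows), not for STUB1 and UFD1L, and the ZFAND2A window was the 1 of the 11 with a match. Of 35116 promoter windows of this length, 13.5% hold a match. The start sites of UBB lie 492 and 543 bases inside its GENCODE bounds and those of NPLOC4 71032 and 81863 bases inside. The upstream starts of these genes were not searched, and neither were those of ZFAND2A and VCP at their GENCODE bounds. The same letters were present in a window of 5 of the 7 heat shock genes set beside the members below. This counts genes, of which DNAJB1 had several windows, whereas the 13.5% is a share of windows. That list was fixed with earlier results of these data known, so the count is no independent result. The ATF4 composite TGATGNAAN (3.61% of windows) and the ER stress element, CCAAT and CCACG with 9 bases between them (0.0769% of windows), were searched on both strands and had no match in the 11 windows, which says only that these letters are not there.

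ZFAND2A, whose product is also known as the arsenite-inducible RNA-associated protein, is at 7:1152071-1160759 on the minus strand (hg38, GENCODE v29). It had 36.9 FPKM in the first DMSO library and 23.1 in the recovered one. At 2 h it had 152 and, recovered, 192 FPKM. It reached 683 FPKM at 6 h and 771 at 12 h. Thus every SpiD7 library was above both DMSO libraries, without overlap, as for 8.93% of all genes tested, and the 6 h and 12 h libraries were above both 2 h libraries. The mean was 30.01 ± 9.77 FPKM in DMSO and 172 ± 27.8 at 2 h (SD, n = 2 each). The log2 fold change against DMSO was 2.54 for 2 h (SE 0.32, 5.83-fold), 4.54 for 6 h (SE 0.40, 23.3-fold) and 4.72 for 12 h (SE 0.40, 26.3-fold). Without the recovered libraries they were 2.04, 4.21 and 4.38. The differences over all libraries ranked 79th, 65th and 76th from the highest among the 13287 genes. None was past the threshold after adjustment (limma, adjusted p = 1.0, 0.183 and 0.141), whereas the unadjusted p was 0.00245 after 2 h, 0.000688 after 6 h and 0.000606 after 12 h. The 95% interval of the 12 h fold, before adjustment for the number of genes, ran from 11.7 to 59.0. Between 2 h and 12 h the level differed by 2.17 on the log2 scale (SE 0.40, 4.51-fold, limma adjusted p = 0.764, unadjusted p = 0.00795).

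UBB, a polyubiquitin gene, is at 17:16380798-16382745 on the plus strand and was the most highly expressed of the 9 in every library. It had 696 FPKM in the first DMSO library and 828 in the recovered one. At 2 h the values were 892 and, recovered, 1227 FPKM, at 6 h 1308 and at 12 h 1810. All 4 SpiD7 libraries were again above both DMSO libraries, but the gap between the highest DMSO and the lowest 2 h library was smaller than the distance between the 2 h libraries. The log2 fold change was 0.46 after 2 h (SE 0.25, 1.38-fold), 0.78 after 6 h (SE 0.31, 1.72-fold) and 1.25 after 12 h (SE 0.31, 2.38-fold). Without the recovered libraries the values were 0.36, 0.91 and 1.38. UBB did not pass the test at any time (limma, adjusted p = 1.0, 0.942 and 0.477; unadjusted p = 0.148, 0.0718 and 0.0198). UBB has a repeated coding sequence that is found in other ubiquitin genes, and 5 processed copies (UBBP1 to UBBP5) are in GENCODE but were not rows of the table, so that reads from these loci may have been divided between them. An antisense transcript, AC093484.3, covers 28.4% of its exon bases.

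Beside UBB, RPS27A stayed between 1066 and 1396 FPKM, and its 12 h library, at 1354, was above both DMSO libraries (1305 and 1160; log2 difference 0.14). Of the ubiquitin-activating enzymes, UBA1 had 103 and 100.03 FPKM in DMSO and 86.9 after 12 h (log2 difference -0.23), and UBA6 had 11.9 and 11.3 FPKM in DMSO and 10.7 after 12 h (-0.11). Both enzymes were thus below both DMSO libraries at 12 h. Earlier, UBA6 was above both, with 15.4 and 13.9 FPKM in the 2 h pair and 13.4 after 6 h. UBA1 had 102 and 91.8 FPKM in the 2 h pair and 101 after 6 h. Neither enzyme passed the test at any time, nor did RPS27A.

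ZFAND5 (9:72351425-72365235, minus strand), the other AN1 gene among the 9, had its SpiD7 values within the range of DMSO. It had 15.2 and, recovered, 30.3 FPKM in DMSO, 23.1 and 28.96 in the 2 h pair, 28.6 after 6 h and 29.6 after 12 h. The DMSO libraries differed 2.0-fold, the widest DMSO difference of the 9 genes. Its log2 fold change of 0.27, 0.41 and 0.46 had an SE of 0.42 at 2 h and 0.52 later, and was below 0 at each time when the first DMSO library was left out (-0.23, -0.08 and -0.03). LOC102724516 is listed at the same locus with identical values in every library, so that the row of ZFAND5 cannot be told apart from it. Of the 5 other AN1 genes, ZFAND3 was furthest above DMSO at 12 h (log2 0.25) and ZFAND4 furthest below (-0.67, at 1.68 to 3.46 FPKM), and none passed the test.

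VCP (9:35056064-35073249, minus strand) was second to UBB among the 9 in both DMSO libraries. Its levels were 197 and, recovered, 178 FPKM in DMSO, 190 and 167 in the 2 h pair, 190 after 6 h and 239 after 12 h. Only the 12 h library was above both DMSO libraries (log2 0.35, SE 0.22, 1.28-fold, limma adjusted p = 0.708), and the 95% interval of that fold ran from 0.820 to 1.99. At 6 h the log2 difference of 0.02 changed sign with the scaling of the libraries.

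The heterodimer partners of VCP differed little and in a similar range. NPLOC4 (17:81556887-81648465, minus strand) had 49.2 and 42.5 FPKM in DMSO, 50.1 and 45.1 in the 2 h pair, 49.1 after 6 h and 51.9 after 12 h, the narrowest range of the 9, 1.22-fold from lowest to highest. UFD1L (22:19449910-19479215, minus strand) had 45.3 and 40.4 FPKM in DMSO, 44.0 and 41.8 in the 2 h pair, 52.8 after 6 h and 56.8 after 12 h. Both 2 h libraries of UFD1L thus lay within the DMSO range and the later libraries above it. The log2 differences of UFD1L were 0.30 at 6 h and 0.41 at 12 h (SE 0.20 each), and those of NPLOC4 were 0.10 and 0.18 (SE 0.22 each). Neither gene passed the test at any time, with adjusted p (limma) of 0.651 for UFD1L and 0.846 for NPLOC4 at 12 h. The 95% interval of the 12 h fold was 0.875 to 2.01 for UFD1L and 0.722 to 1.79 for NPLOC4, and differences within these bounds could not be told from none with these libraries.

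Of 21 other cofactors and partners of VCP, 0 passed the test at any time. At 12 h the list ran from ANKZF1, which acts in ribosome quality control (log2 -0.47), to YOD1, a deubiquitylase that binds VCP (log2 1.10, SE 0.23, limma adjusted p = 0.467). YOD1 had 4.24 and 5.18 FPKM in DMSO, 7.47 and 8.08 in the 2 h pair, 8.48 after 6 h and 10.2 after 12 h, without overlap between SpiD7 and DMSO. With it, UBXN7, UBE4A, VCPIP1 and VIMP had all 4 SpiD7 libraries above both DMSO libraries (5 of 21, beside 8.93% of all genes tested), and 0 of 21 had all 4 below (5.04%). The median log2 difference of the list was 0.09 after 2 h, 0.22 after 6 h and 0.09 after 12 h, beside -0.01, 0.03 and -0.05 over all genes tested.

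UBQLN1 (9:83659963-83708203, minus strand) had 54.3 and, recovered, 43.5 FPKM in DMSO, 62.5 and 48.7 in the 2 h pair, 68.3 after 6 h and 62.4 after 12 h. The first 2 h library and the later libraries were above both DMSO libraries, and the second 2 h library was between them. The log2 difference was highest at 6 h (0.49, SE 0.29, limma adjusted p = 0.977), and at 12 h it was 0.36 (SE 0.29, limma adjusted p = 0.778). Among 8 other shuttles and proteasome deubiquitylases or their receptor, DDI2, a shuttle with a protease domain, was furthest above DMSO at 12 h (log2 0.68), and UBQLN2, a close relative of UBQLN1, was furthest below (log2 -0.60). DDI2 had all 4 SpiD7 libraries above both DMSO libraries (1 of 8, beside 8.93% of all genes tested). UBQLN2 had all 4 below (1 of 8, beside 5.04%). Neither passed the test (limma, adjusted p = 0.540 and 0.543 at 12 h).

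STUB1 and USP14 were the genes with log2 differences below 0 at every time. STUB1 (16:680224-682870, plus strand) had 74.7 and, recovered, 53.0 FPKM in DMSO, 63.9 and 52.0 in the 2 h pair, 61.2 after 6 h and 48.7 after 12 h. USP14 (18:158383-214629, plus strand) had 94.2 and 78.0 FPKM in DMSO, 90.7 and 73.4 in the 2 h pair, 84.0 after 6 h and 77.2 after 12 h. For both genes the 12 h library was below both DMSO libraries and the 6 h library was between them. The log2 difference at 12 h was -0.37 for STUB1 (SE 0.33, limma adjusted p = 0.796) and -0.15 for USP14 (SE 0.27, limma adjusted p = 0.901). At 2 h and 6 h the sign turned for both genes when the first DMSO library was left out. Between libraries of the same number, the 2 h log2 difference was -0.22 and -0.03 for STUB1 and -0.05 and -0.09 for USP14. STUB1 shares a locus with JMJD8, which lies on the opposite strand over 983 of its 2316 exon bases (42.4%) and had 47.2 to 57.6 FPKM. Because no source used here states that strand was kept, reads of the shared bases cannot be assigned to either gene.

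Of 8 enzymes and regulators that work with STUB1, UBE2D1, a ubiquitin-conjugating enzyme, was furthest above DMSO at 12 h (log2 0.81, SE 0.24) and BAG2, an inhibitor of STUB1, was lowest (log2 -0.04). UBE2D1 had 8.23 and 8.01 FPKM in DMSO, 10.5 and 13.2 in the 2 h pair, 14.5 after 6 h and 14.3 after 12 h. All its SpiD7 libraries were above both DMSO libraries (1 of 8, beside 8.93% of all genes tested). None of the 8 passed the test (limma adjusted p of UBE2D1 = 0.510 at 12 h).

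**Figure D2:**
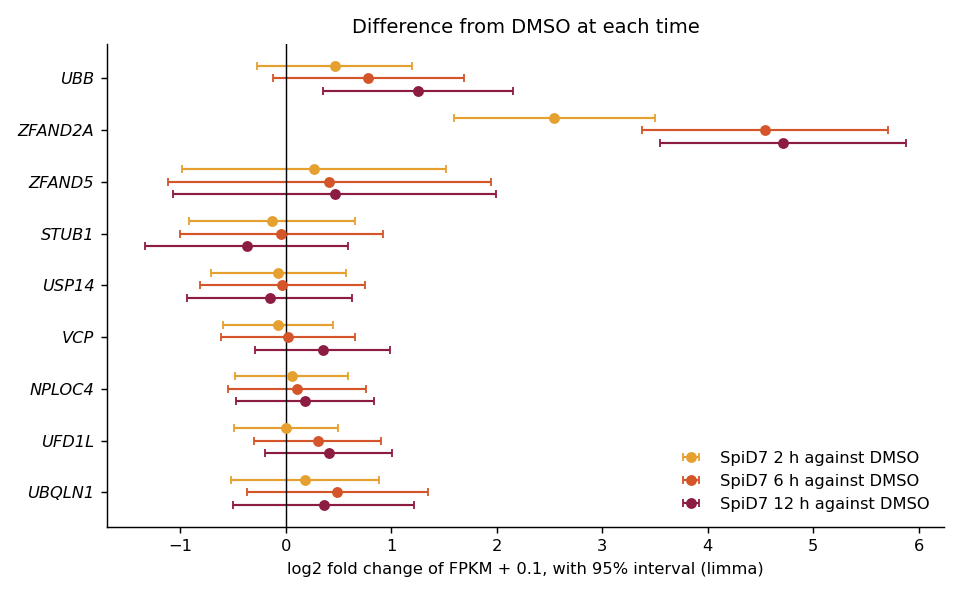
Log2 fold change of each of the 9 genes against DMSO at 2 h, 6 h and 12 h (points), with the 95% interval from limma before adjustment for the number of genes (bars). The intervals of ZFAND2A at all 3 times and of UBB at 12 h lie above 0, those of the other 7 genes include 0 at every time, and no adjusted p was below 0.05.

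Over all 13287 genes the test called 3 genes for 2 h, 39 for 6 h and 45 for 12 h, and 48 (0.361%) between 12 h and 2 h, with 0 of the 9 among them. Of these called genes, 3, 36, 42 and 47 had a library at 0 FPKM, counting zeros of the recovered libraries as well as deposited ones. At an unadjusted p under 0.05 there were 378, 738, 1221 and 798 genes, among them ZFAND2A in all 4 comparisons and UBB at 12 h against DMSO.

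More than 2-fold above DMSO were 1 of the 9 at 2 h (ZFAND2A), 1 at 6 h (ZFAND2A) and 2 at 12 h (UBB and ZFAND2A), beside 2.32%, 5.66% and 6.48% of all genes tested. None was more than 2-fold below, beside 0.662%, 3.1% and 3.76%. Both 2 h libraries were above both DMSO libraries for 2 of the 9, UBB and ZFAND2A, beside 13.7% of all genes, and below both for 0, beside 8.1%. All 4 SpiD7 libraries were above both DMSO libraries for the same 2 genes, beside 8.93% of all genes, and below for 0, beside 5.04%. The single 6 h library was above both DMSO libraries for 4 of the 9 (31.6% of all genes) and the single 12 h library for 6 of the 9 (30.1%). The median log2 difference of the 9 was 0.06 after 2 h, 0.30 after 6 h and 0.36 after 12 h, beside -0.01, 0.03 and -0.05 over all genes. Without UBB and ZFAND2A, the 12 h differences ran from -0.37 (STUB1) to 0.46 (ZFAND5).

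**Figure D3:**
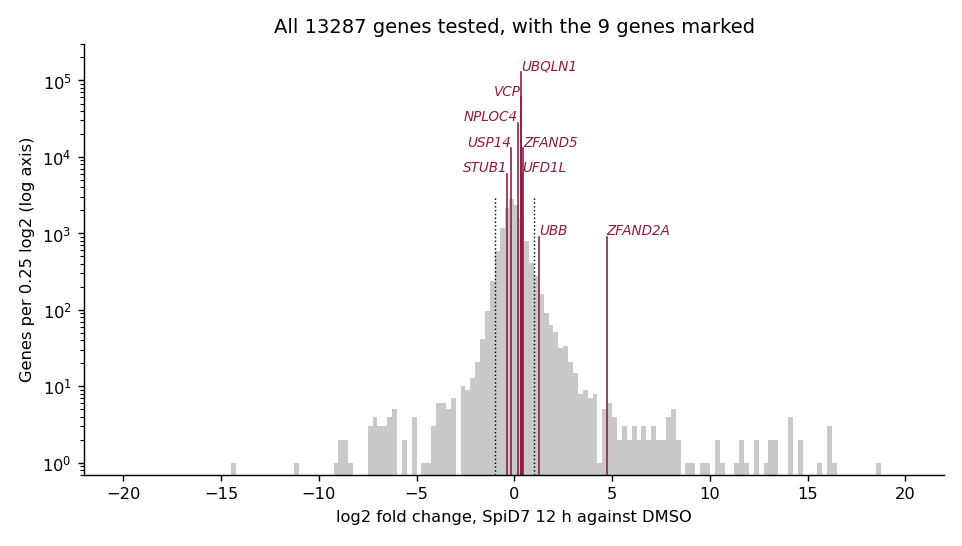
Distribution of the log2 fold change at 12 h against DMSO over all 13287 genes tested (grey bars, genes per bin of 0.25, log axis), with the 9 genes as lines whose heights carry no meaning and dotted lines at a 2-fold difference either way. ZFAND2A, at 4.72, lies in the sparse upper tail and UBB, at 1.25, just past the upper dotted line, and the other 7 lie inside the dotted lines.

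In DMSO the order of the levels was UBB, VCP, USP14, STUB1, UBQLN1, NPLOC4, UFD1L, ZFAND2A and ZFAND5. The DMSO ranges of STUB1 and UBQLN1, of UBQLN1 and NPLOC4, of NPLOC4 and UFD1L, and of ZFAND2A and ZFAND5 overlapped, and those of the other neighbours did not. At 6 h and 12 h ZFAND2A stood second, below UBB and above VCP.

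The 7 heat shock genes set beside the members include the chaperones of the HSP70 family and their partners. All 7 were more than 2-fold above DMSO at 6 h and 12 h, beside 5.66% and 6.48% of all genes tested. All 4 SpiD7 libraries were above both DMSO libraries for each of the 7, beside 8.93% of all genes. The list was fixed with earlier results of these data known, so that these counts are no independent result. At the adjusted threshold 1 of the 7 was called at 6 h and 12 h, HSPA6, a strictly inducible HSP70, which rose from 0.317 and 0.0965 FPKM in DMSO to 620 and 1030 FPKM (limma, adjusted p = 0.0353 and 0.0246). HSPA8, the constitutive HSP70, had the smallest difference of the list at 12 h (log2 1.32), close in value to UBB (1.25). ZFAND2A lay between HSPA1A (log2 5.10 at 12 h) and DNAJB1 (3.70). HSPA1A and HSPA1B are near-identical copies, and how reads were divided between them is uncertain.

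**Figure D4:**
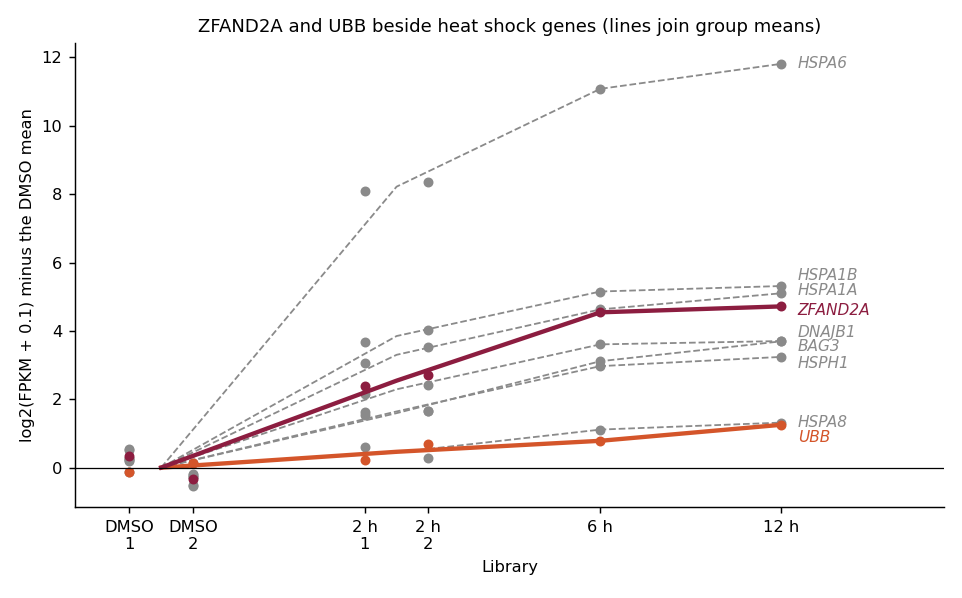
Log2(FPKM + 0.1) minus the DMSO mean (vertical axis) in each library (horizontal axis, points) for ZFAND2A, UBB and 7 heat shock genes, with lines through the group means. At 12 h ZFAND2A (4.72) lies just under HSPA1A (5.10), and UBB (1.25) lies beside HSPA8 (1.32).

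For the 3 members with the widest range of log2 values, the genes with the most similar profile were sought by the root mean square difference of log2 values, each centred on its own mean over the 6 libraries. For ZFAND2A they were GADD45G (0.28), a growth arrest gene listed at 0.161 to 6.78 FPKM, HSPA1A (0.34) and NAALAD2 (0.39), and 0 genes lay within 0.25. For UBB they were VPS37B (0.10), ZNF565 (0.10) and LYRM1 (0.11), and 247 genes lay within 0.25. For ZFAND5 they were LOC102724516, which has its values, LOC100507217 (0.09) and USP30 (0.09), and 508 genes lay within 0.25. The log2 range over the libraries was 5.05 for ZFAND2A, 1.38 for UBB and 0.99 for ZFAND5. Because the difference was not scaled to this range, these counts of neighbours depend on it and do not show how unusual a profile is.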

How the data were processed

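Single reads from Illumina TruSeq V2 libraries of total RNA were, per the paper's methods and the labels, trimmed with Trim Galore, aligned with TopHat2 2.0.8 and quantified with Cufflinks and Cuffdiff 2.1.1. The methods name a mouse build, whereas the deposited loci lie on human hg38. What the authors deposited is 1 table of FPKM values, with a column for either side of each of 4 comparisons, and their own log2 fold changes, p-values and q-values, which were not used. The columns named for replicate 2 were read as group means, a reading the sources do not state, because 0 of 18195 DMSO rows and 0 of 18722 rows at 2 h that were above 0 in the first library were at 0 there. Replicate 2 was recovered by subtracting the first library at its lowest share (0.526 for DMSO, 811 rows; 0.509 for 2 h, 964 rows) and dividing by it, with equal weights. A remainder under 0.2% of the group mean was set to 0. The 6 h and 12 h comparisons, scaled separately by Cuffdiff, were brought to the first through the DMSO library they share (factors 0.972 and 0.994). No column was left unassigned (0).

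Rows of 1 symbol were summed (33085 rows). The genes tested had a mean of 1 FPKM or more; the test was made by limma 3.58.1 in R 4.3.3 on log2(FPKM + 0.1), in 4 groups, at an adjusted p of 0.05, after a test on simulated data. Other steps used pandas 2.3.3 (Python 3.11.15, numpy 2.4.6). Gene positions are from GENCODE v29 and windows from RefSeq (GRCh38.p14). Genes named were the 9 members, the highest and lowest of each list at 12 h and any called, overlapping genes and copies, the 3 most similar profiles of the 3 members with the widest range, and, named after their values were seen, list genes without overlap between SpiD7 and DMSO, markers and MIR6723. The members and lists were chosen with earlier results of these data known. Alternatives were other pseudocounts, filters, scalings and recovery weights, an intensity trend, a replicate block and leaving out each DMSO or 2 h library. Some genes of the ubiquitin supply list are not reported here.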

Additional observations from a re-analysis of the deposited data

How the results depend on the processing

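In no alternative did any of the 9 genes pass an adjusted p of 0.05. The lowest adjusted p over all alternatives was 0.0866, for ZFAND2A at 12 h (limma; highest 0.466). Leaving out 1 DMSO or 2 h library at a time, ZFAND2A at 12 h ranged from 4.38 to 5.05 on the log2 scale and UBB from 1.13 to 1.38. Of 522 recomputed log2 values of the 9 genes, 28 had another sign, and none of these belonged to ZFAND2A or UBB. Part of the 522 could not turn, because other filters, the intensity trend and the replicate block leave a log2 value unchanged. Leaving out a 2 h library likewise does not alter the 6 h and 12 h differences from DMSO. The share of 28 in 522 is therefore no measure of how stable the signs are. UFD1L at 2 h was -0.025 with median-ratio scaling and -0.044 with depth weights in the recovery. VCP at 6 h was -0.026 with median-ratio scaling, -0.020 with upper-quartile scaling and -0.053 with depth weights. With the first libraries alone, an alternative chosen after seeing the data and without a test, UFD1L at 2 h was -0.041, VCP at 6 h -0.054, NPLOC4 at 6 h -0.0024 and UBQLN1 between 12 h and 2 h -0.0016, while ZFAND2A at 2 h was 2.04.

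The other reversals came from leaving out a library. The ranges at 2 h were -0.049 to 0.16 for NPLOC4, -0.37 to 0.12 for STUB1, -0.078 to 0.086 for UFD1L, -0.22 to 0.081 for USP14, -0.16 to 0.019 for VCP and -0.23 to 0.76 for ZFAND5. Between libraries of the same number, the 2 h difference kept its sign for STUB1, USP14, NPLOC4 (0.03 and 0.09) and VCP (-0.06 and -0.09). It did not for UFD1L (-0.04 and 0.05) and ZFAND5 (0.60 and -0.07). At 6 h they were -0.0024 to 0.21 for NPLOC4, -0.29 to 0.21 for STUB1, -0.17 to 0.11 for USP14, -0.054 to 0.098 for VCP and -0.082 to 0.91 for ZFAND5. At 12 h ZFAND5 ranged from -0.034 to 0.96, and between 12 h and 2 h UBQLN1 ranged from -0.0016 to 0.36 and USP14 from -0.23 to 0.072.

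The number of genes called at 2 h was 3, and it was 1 with a pseudocount of 1, with median-ratio or upper-quartile scaling, with an intensity trend or with depth weights, 6 with a pseudocount of 0.01 and 0 with no filter on low values. Without the filter, 96 genes were called at 6 h, 263 at 12 h and 226 between 12 h and 2 h. Leaving out 1 DMSO or 2 h library gave 0 to 21 at 2 h, 22 to 47 at 6 h, 26 to 51 at 12 h and 29 to 49 between 12 h and 2 h; 0 were called at 2 h without the first 2 h library. Between 12 h and 2 h, 2 of the 9 (ZFAND2A and UBB) were more than 2-fold higher with the first libraries alone or without the second 2 h library, and 1 otherwise. The 2 h libraries of UBB had 892 and, recovered, 1227 FPKM. Its log2 difference between 12 h and 2 h was 0.79 with both and 1.02 without the second. With a replicate block, 0 genes were called at 2 h, and the adjusted p was 0.329 for ZFAND2A and 0.333 for UBB. The libraries share only a number, with 2 pairs whose deviations correlate at 0.369 over genes. The 6 libraries, 2 of them recovered, leave wide intervals, and without counts the number of reads behind each value is unknown.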
